A study of Homo sapiens with 6 samples.

Results

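The ADAM and ADAMTS genes of LX-2 cells were examined. They were taken as every row of the deposited gene table whose symbol is ADAM or ADAMTS followed by digits alone, and 41 of 60748 rows met this rule, 22 ADAM and 19 ADAMTS symbols. LX-2 is an established human hepatic stellate cell line. RNA was sequenced from LX-2Vector cells (n = 3), which carried the empty lentiviral vector, and from LX-2FAP cells (n = 3), which had been infected with the same vector holding FAPα, fibroblast activation protein α, a membrane serine protease. In this vector a ubiquitin promoter drives the insert, and EGFP and a puromycin resistance gene are also present, so both groups share these and the puromycin selection of stable clones. Whether a group is 1 clone, or its 3 libraries separate cultures, is not given in the sources used here, so p-values measure only the spread between these libraries, which may be technical. All cells were cultured for 24 h.

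ADAMs are membrane-anchored metalloproteinases, and many of them cut the extracellular part of other membrane proteins, which is called shedding. ADAMTS proteins are their secreted relatives with thrombospondin repeats and act on the extracellular matrix, where they trim procollagens, cut large proteoglycans such as versican, or act on fibrillin networks and von Willebrand factor. In the liver, stellate cells make much of the matrix that these enzymes process, and several members are known for higher levels in fibrosis. A catalytic member binds zinc through 3 histidines around a glutamate, and ADAMs that lack these residues act as adhesion proteins or ligands instead.

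The codons of that zinc site are shown because the ADAMs are listed here by whether they hold it. The members whose values changed can also be compared there. The search was run on the coding exons of GENCODE release 29 (GRCh38). The pattern spans 11 codons, for histidine, glutamate, any 2 residues, histidine, any 2 residues, glycine, any 2 residues and histidine, and capitals mark the 5 conserved codons. Asparagine in place of the glycine was admitted after a first search. The lines below are on the coding strand, 5′ to 3′, and a site that runs over an exon border is given from its first to its last base.
ADAMTS2, procollagen N-proteinase, chr5:179154177-179154830 (-): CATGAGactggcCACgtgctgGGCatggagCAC
ADAMTS14, procollagen N-proteinase, chr10:70732343-70733900 (+): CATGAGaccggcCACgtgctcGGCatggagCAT
ADAMTS3, procollagen N-proteinase, chr4:72319460-72319874 (-): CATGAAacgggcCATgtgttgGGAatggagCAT
ADAMTS7, chr15:78788359-78789705 (-): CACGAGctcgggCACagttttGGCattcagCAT
ADAMTS12, chr5:33649682-33658200 (-): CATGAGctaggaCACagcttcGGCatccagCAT
ADAMTS6, chr5:65300116-65329394 (-): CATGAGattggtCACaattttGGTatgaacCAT
ADAMTS10, chr19:8596204-8596323 (-): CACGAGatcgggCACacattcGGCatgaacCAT
ADAMTS1, chr21:26841143-26841867 (-): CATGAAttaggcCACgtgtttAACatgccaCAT
ADAM10, chr15:58627881-58633225 (-): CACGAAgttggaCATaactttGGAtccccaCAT
ADAM17, chr2:9510078-9510110 (-): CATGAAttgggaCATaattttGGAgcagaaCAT

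The site was found in 30 of the 41 members. All of ADAM8, ADAM9, ADAM10, ADAM12, ADAM15, ADAM17, ADAM19, ADAM20, ADAM21, ADAM28, ADAM30 and ADAM33 held it, as did every ADAMTS gene except ADAMTS8. Asparagine stood in the fourth conserved position in ADAMTS1, ADAMTS4, ADAMTS9 and ADAMTS15, all listed as cleaving hyalectans, the family of versican and aggrecan. ADAMTS8 is on the same list, so a lack of match to this pattern does not make a member a non-protease. No match was found in ADAM2, ADAM7, ADAM11, ADAM18, ADAM22, ADAM23, ADAM29 and ADAM32, and ADAM5 and ADAM6 are annotated as pseudogenes without a coding transcript. ADAMTS2 and ADAMTS14 differed at 3 of the 33 bases, and each differed from ADAMTS3 at 6. ADAMTS7 and ADAMTS12, close relatives, differed at 6, and ADAM10 and ADAM17 at 8. Over all pairs of the 28 sites compared, which leave out ADAM9 and ADAM28, the difference ran from 3 bases, also found between ADAM8 and ADAM15, to 19.

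The overexpressed gene was checked first. LX-2Vector replicates 1 to 3 held 49, 42 and 55 counts of FAP and the LX-2FAP replicates 14864, 15160 and 14805, so every library matched its label. Total counts ran from 17355700 to 26352060 per library. On the first principal component, which held 36.2% of the variance, LX-2FAP replicate 1 lay at 1.9, nearer to the LX-2Vector libraries (-20.7 to -11.6) than the other two LX-2FAP libraries (17 and 25.4). Of 10 stellate cell markers, 8 passed the expression filter. The summed level of the markers was 471.7 to 490.6 FPKM in LX-2Vector and 489.03 to 502.9 FPKM in LX-2FAP, and LRAT was at 0 in both groups. Most of this sum was VIM and TIMP1, with means of 300.8 and 131.2 FPKM in LX-2Vector and 323.45 and 135.1 FPKM in LX-2FAP. ACTA2 and COL1A2 had means of 1.29 and 0.109 FPKM in LX-2Vector. VIM was called higher and COL1A1, COL3A1 and PDGFRB lower. Of 5 hepatocyte markers TTR was at 0 in every library, ALB had 1 to 3 counts per library, and SERPINA1, with 199 to 338 counts per library, was the one to pass the filter. The summed hepatocyte markers lay at 2.64 to 3.03 and 2.14 to 2.36 FPKM, endothelial markers at 0.843 to 1.04 and 0.645 to 0.826 FPKM, and macrophage markers at 2.58 to 2.74 and 2.38 to 2.57 FPKM. Epithelial markers, mostly the keratin gene KRT8, lay at 24.1 to 25.2 and 21.2 to 23.6 FPKM. Outside the stellate list the endothelial marker VWF was the one called, lower in LX-2FAP (log2 fold change -1.06, adjusted p in edgeR = 0.0268). The part of these markers in the results below was not tested.

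The levels of the members in LX-2Vector were then ordered. FPKM, which divides the fragments of a gene by its length and by the size of the library, was used here since levels of different genes can be compared only per length. Summed over all members, the level was 131.6 ± 1.52 FPKM in LX-2Vector and 131.95 ± 1.31 FPKM in LX-2FAP (SD, n = 3). ADAMs with a zinc site made up 59.9% of this sum in LX-2Vector, the ADAMTS outside the 2 substrate-defined lists 25.4%, the hyalectan-cleaving ADAMTS 7.19%, ADAMs without a zinc site 6.14% and the procollagen N-proteinases 1.36%. The sum and these shares rest on the deposited gene length of ADAM9, which is given below. With its shorter GENCODE length the sum and the share of ADAMs with a zinc site would be larger. A mean of at least 1 FPKM was reached by 14 members.

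**Figure D1:**
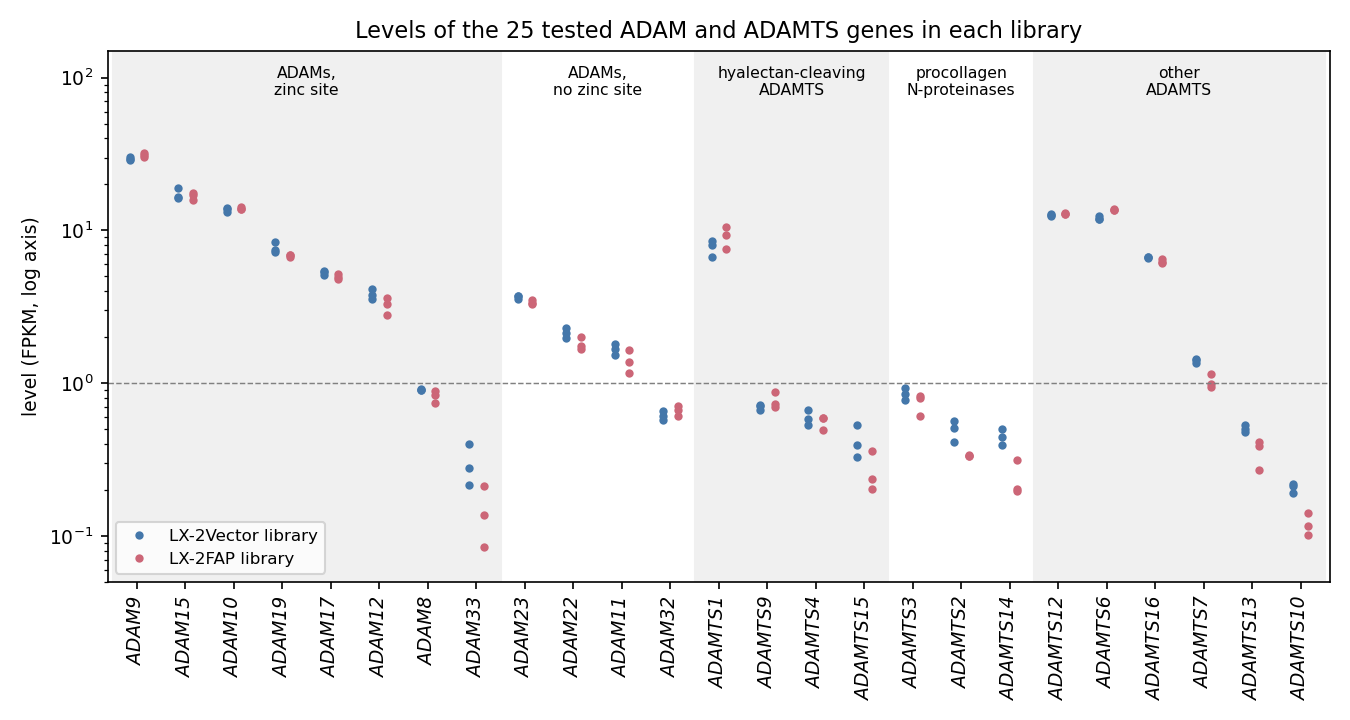
Level in FPKM on a log axis (vertical) of the 25 tested members (horizontal, grouped by role and ordered by level within a role). Each point is 1 library, LX-2Vector in blue and LX-2FAP in red, and the dashed line marks 1 FPKM. ADAM9 lies highest at 28.9 to 32.0 FPKM, and the 3 procollagen N-proteinases all lie below 1 FPKM.

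ADAM9, a broad sheddase, was highest, at 28.9, 29.3 and 30.4 FPKM in LX-2Vector replicates 1 to 3. Its deposited FPKM rests on a gene length of 17704 bases, against 6913 bases of merged exons in GENCODE release 29, and with the latter its mean would be 75.7 FPKM with the same place in the order. ADAM15, a disintegrin with a role in cell adhesion, followed at 19.07, 16.4 and 16.6 FPKM, although 4.65% of its exon bases are shared with DCST1 on the same strand. ADAM10, the main sheddase of Notch receptors and N-cadherin, had 13.2, 13.8 and 14.1 FPKM. ADAMTS12 and ADAMTS6 came next, at 12.6, 12.8 and 12.4 FPKM and at 11.8, 11.8 and 12.4 FPKM. ADAMTS12 was higher than ADAMTS6 in each LX-2Vector library, and their place was exchanged in LX-2FAP. The ratio of ADAMTS6 to ADAMTS12 in FPKM was 0.939, 0.922 and 0.998 in LX-2Vector replicates 1 to 3 and 1.04, 1.06 and 1.08 in LX-2FAP replicates 1 to 3. The groups did not overlap (2-sided exact permutation p = 0.1, the smallest that 3 against 3 can give, and 0.2 when adjusted by Benjamini-Hochberg over 4 such ratios). This pair was chosen after its values were seen.

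ADAMTS1, which cuts versican and aggrecan, and ADAM19, also called meltrin beta, could not be ordered. Their means in LX-2Vector were 7.72 ± 0.960 and 7.68 ± 0.587 FPKM (SD, n = 3), and ADAMTS1 was higher in 2 of 3 libraries. ADAMTS16 lay at 6.65 ± 0.0795 FPKM. ADAM17, the sheddase of TNF and of EGF receptor ligands, lay at 5.28 ± 0.152 FPKM, below ADAM10 in every library. In all, 13.6% of the exon bases of ADAM17 lie opposite IAH1 and AC073195.1, and use of strand in counting is not given in the sources used here. ADAM12 (3.82 ± 0.288 FPKM), a meltrin known as a marker of activated stellate cells, and ADAM23 (3.66 ± 0.0795 FPKM), the highest of the ADAMs without a zinc site, exchanged places between libraries. ADAM22, ADAM11 and ADAMTS7 closed the group above 1 FPKM, at 2.14 ± 0.164, 1.66 ± 0.139 and 1.40 ± 0.0425 FPKM.

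The other 27 members had means below 1 FPKM, and 16 of them did not pass the expression filter in the test. Among the 16, no library held more than 11 counts of a gene and the highest mean was 7.83 counts, so the depth allowed no comparison of them. ADAM2, ADAM18 and ADAM6 were at 0 in every library, where the limit that a count of 0 allows, 3 counts, comes to 0.114 to 0.171 CPM, counts scaled to a normalized library size (counting error only). ADAMTS5, a main aggrecanase of cartilage, had a mean of 0.0215 ± 0.00720 FPKM in LX-2Vector. ADAM5, the higher of the 2 annotated pseudogenes, had 0.0266, 0.0808 and 0.0832 FPKM in LX-2Vector and 0.0580, 0.0192 and 0.0165 FPKM in LX-2FAP. ADAM21 shares 15.1% of its 75-base words, the stretches of that length in its transcripts, with ADAM21P1, so its few counts are uncertain.

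LX-2FAP was compared with LX-2Vector next, to ask which members moved with FAPα. Differences are log2 fold changes, positive where LX-2FAP was higher, with their SE after the ± sign, and in such bulk RNA fewer expressing cells and less RNA per cell cannot be told apart. A gene was called where its adjusted p in edgeR was under 0.05. Of the 25 tested members 3 were called, beside 5.29% of all 18275 tested genes. ADAMTS6 rose, with 2.57% of all genes called higher, and ADAMTS14 and ADAMTS7 fell, with 2.73% of all genes called lower. Log2 fold changes of the 25 ran from -0.93 to 0.27 with a median of -0.13, beside -0.01 for all tested genes, and 18 were below 0, beside 53% of all genes. At an unadjusted p under 0.05 there were 13 members, 10 of them lower, beside 22.2% of all genes. A change of more than 1.2-fold together with an unadjusted p under 0.05 was met by 8 members, 7 lower and 1 higher, beside 7.89% of all genes (6.44% lower and 1.45% higher). Normalized CPM did not overlap between the groups for 11 members, 8 lower and 3 higher, beside 26.4% of all genes (13.4% lower and 13% higher).

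The number of members called depended on the libraries and on the tool. Without LX-2FAP replicate 1 there were 8, beside 10.4% of all genes, and 0 when LX-2FAP replicate 2 or 3 was left out, beside 0.687% and 0.138% of all genes. At an unadjusted p under 0.05 these last fits gave 7 and 10 members, with no share over all genes counted. The DESeq2 Wald test called 2 members, 1 in each direction, beside 5.64% of all genes. It gave no adjusted p for 7 members, ADAMTS14 among them, so these could not be called by it. With no filter on low counts 7 of 38 tested members were called, beside 3.9% of all genes. Limma-trend on the FPKM values called 0 members, but it called only 2 of all tested genes, so its 0 is not particular to the members. It gave 9 members at an unadjusted p under 0.05, where no share over all genes was counted.

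**Figure D2:**
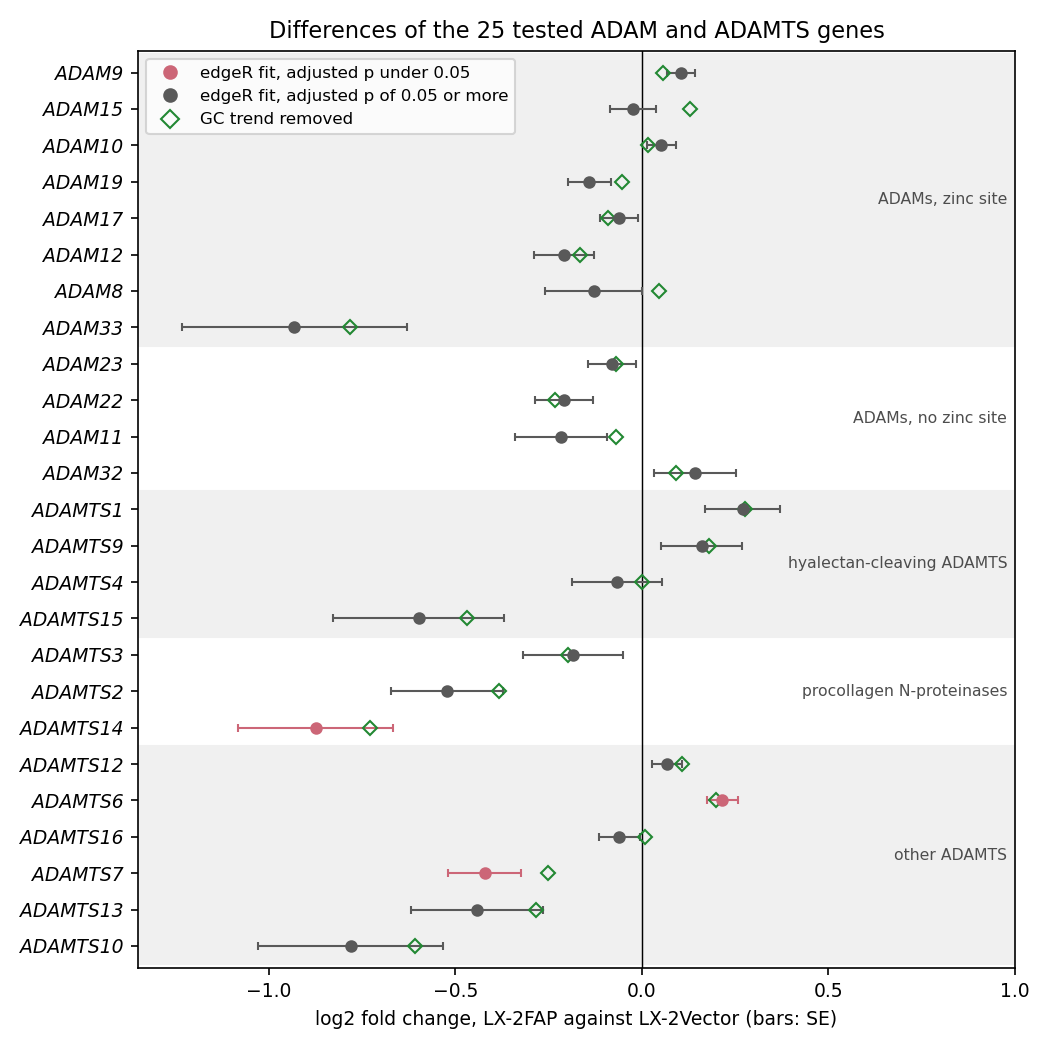
Log2 fold change of LX-2FAP against LX-2Vector (horizontal; positive is higher in LX-2FAP) for the 25 tested members (vertical, by role). Filled points with bars give the edgeR estimate and its SE, red where the adjusted p is under 0.05, and open diamonds give the estimate after a trend on GC content was removed. The 3 red points are ADAMTS14 at -0.87, ADAMTS7 at -0.42 and ADAMTS6 at 0.22.

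The procollagen N-proteinases remove the amino-terminal propeptides of fibrillar procollagens, and all 3 of them had log2 fold changes below 0. ADAMTS14 (ENSG00000138316, GRCh38 chromosome 10, 70672803 to 70762441) stood at 2.80, 2.17 and 2.45 CPM in the LX-2Vector libraries, in replicate order, and at 1.75, 1.11 and 1.15 CPM in the LX-2FAP libraries. Every LX-2FAP library lay below every LX-2Vector library, with LX-2FAP replicate 1 nearest to the controls. The mean fell from 2.47 ± 0.319 to 1.34 ± 0.360 CPM (SD, n = 3), a difference of -0.87 ± 0.21 (adjusted p in edgeR = 0.0268). The call rested on 20 to 74 counts per library. It was lost when LX-2FAP replicate 2 (-0.77) or 3 (-0.76) or LX-2Vector replicate 1 (-0.76) or 3 (-0.88) was left out.

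ADAMTS2, the best known of these enzymes, had 3.60, 4.39 and 4.94 CPM in LX-2Vector and 2.96, 3.00 and 2.96 CPM in LX-2FAP. The groups did not overlap, but the difference of -0.52 ± 0.15 did not pass (adjusted p in edgeR = 0.0539). ADAMTS3, the highest of them in FPKM, had 6.51, 5.93 and 5.36 CPM in LX-2Vector and 4.34, 5.89 and 5.63 CPM in LX-2FAP. Its groups overlapped, with a difference of -0.19 ± 0.13 (adjusted p in edgeR = 0.456), which was -0.048 without LX-2FAP replicate 1 and -0.10 without LX-2Vector replicate 1. Summed over ADAMTS2, ADAMTS3 and ADAMTS14 the level was 1.85, 1.76 and 1.78 FPKM in LX-2Vector and 1.26, 1.36 and 1.33 FPKM in LX-2FAP. The sums did not overlap, but they include ADAMTS2 and ADAMTS14, whose own groups did not overlap, so they add no independent support.

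**Figure D3:**
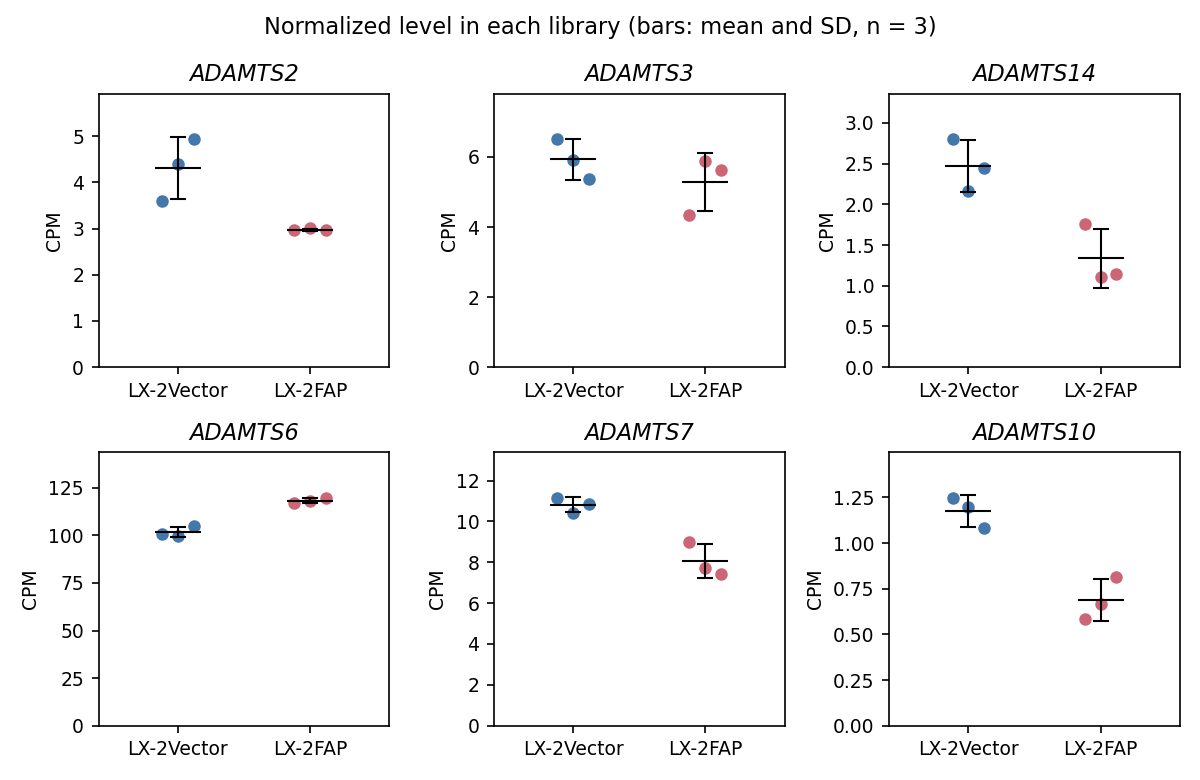
CPM (vertical, from 0) in each of the 3 LX-2Vector (blue) and 3 LX-2FAP (red) libraries for the procollagen N-proteinases ADAMTS2, ADAMTS3 and ADAMTS14 and for ADAMTS6, ADAMTS7 and ADAMTS10, with the mean and SD in black. The groups overlap in ADAMTS3 and in none of the other panels, and ADAMTS6 is the panel in which LX-2FAP lies higher.

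Among the ADAMTS outside the 2 substrate-defined lists, 6 passed the expression filter and the groups did not overlap in any of the 6, 4 lower and 2 higher, beside 13.4% and 13% of all genes. ADAMTS6 (ENSG00000049192, chromosome 5, 65148736 to 65481920), which has been linked to fibrillin microfibrils and heart development, had 100.7, 99.8 and 105.0 CPM in LX-2Vector and 117.02, 118.1 and 119.9 CPM in LX-2FAP. The lowest LX-2FAP library lay above the highest LX-2Vector library. ADAMTS6 rose from 101.9 ± 2.78 to 118.3 ± 1.43 CPM (SD, n = 3), a difference of 0.22 ± 0.04 (adjusted p in edgeR = 0.0122). The call was lost when LX-2FAP replicate 2 (0.22) or 3 (0.21) was left out.

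ADAMTS7 (ENSG00000136378, chromosome 15, 78759203 to 78811431), known for cutting COMP and for its link to vascular smooth muscle, had 11.2, 10.4 and 10.9 CPM in LX-2Vector and 9.01, 7.73 and 7.45 CPM in LX-2FAP. All LX-2FAP libraries lay below all LX-2Vector libraries. ADAMTS7 fell from 10.8 ± 0.371 to 8.06 ± 0.834 CPM (SD, n = 3), a difference of -0.42 ± 0.10 (adjusted p in edgeR = 0.0249). The call was lost when LX-2FAP replicate 2 (-0.39) or 3 (-0.36) or LX-2Vector replicate 1 (-0.39) or 3 (-0.41) was left out. ADAMTS7 shares 7.46% of its 75-base words with the copies ADAMTS7P1, ADAMTS7P3 and ADAMTS7P4, so a part of its counts is uncertain. LX-2Vector held 20, 13 and 18 counts of ADAMTS7P4 beside 295, 183 and 231 of ADAMTS7, and LX-2FAP held 14, 10 and 22 beside 216, 139 and 156.

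The remaining ADAMTS of the same list were not called. ADAMTS12, a close relative of ADAMTS7, had 120.3, 121.4 and 118.1 CPM in LX-2Vector and 126.6, 125.4 and 124.8 CPM in LX-2FAP (0.07 ± 0.04, adjusted p in edgeR = 0.353). ADAMTS10, which acts with fibrillin and is a close relative of ADAMTS6, had 1.25, 1.197 and 1.08 CPM in LX-2Vector and 0.584, 0.667 and 0.812 CPM in LX-2FAP. Its difference of -0.78 ± 0.25 rested on 12 to 33 counts per library and did not pass (adjusted p in edgeR = 0.0739). ADAMTS13, which cuts von Willebrand factor, had 2.73, 3.02 and 2.82 CPM in LX-2Vector and 2.38, 1.56 and 2.24 CPM in LX-2FAP. Its log2 fold change was -0.44 ± 0.18 (adjusted p in edgeR = 0.151). ADAMTS16 lay at 38.5, 38.6 and 39.1 CPM and at 38.2, 36.1 and 36.996 CPM, so that the lowest LX-2Vector library was only just above the highest LX-2FAP library (-0.06 ± 0.05, adjusted p in edgeR = 0.565).

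Among the hyalectan-cleaving ADAMTS no member of 4 tested was called, and the groups overlapped in each. ADAMTS1 had 61.999, 57.8 and 48.1 CPM in LX-2Vector and 56.03, 78.4 and 69.3 CPM in LX-2FAP. LX-2FAP replicate 1 lay within the controls and the other two above them (0.27 ± 0.10, adjusted p in edgeR = 0.124). Without LX-2FAP replicate 1 the difference of ADAMTS1 was 0.40 and it was called (adjusted p in edgeR = 0.00731). It was 0.16 without LX-2FAP replicate 2 and 0.18 without LX-2Vector replicate 3 (adjusted p in edgeR = 0.440 and 0.319). ADAMTS9, ADAMTS4 and ADAMTS15 had log2 fold changes of 0.16, -0.07 and -0.60, and 0.135 (ADAMTS15) was the smallest adjusted p in edgeR.

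Among the ADAMs with a zinc site none of 8 tested members was called. ADAM9 had 511.1, 512.8 and 533.4 CPM in LX-2Vector and 558.96, 543.01 and 573.4 CPM in LX-2FAP. The groups did not overlap, but the difference was 0.11 ± 0.04 (adjusted p in edgeR = 0.113). ADAM19 lay at 55.6, 56.9 and 63.7 CPM and at 53.5, 51.9 and 54.2 CPM, lower in LX-2FAP without overlap (-0.14 ± 0.06, adjusted p in edgeR = 0.156). ADAM10 had 210.6, 218.1 and 223.5 CPM and 223.7, 223.5 and 229.2 CPM, groups that overlapped by a narrow margin (0.05 ± 0.04, adjusted p in edgeR = 0.475). ADAM15 had 125.2, 106.7 and 108.2 CPM and 104.6, 117.9 and 113.3 CPM, and its groups overlapped too (-0.02 ± 0.06, adjusted p in edgeR = 0.868).

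Members given without a value in each library, and ADAM33, lie outside the naming rule and were picked after their values were seen. ADAM17 had a difference of -0.06 ± 0.05 (adjusted p in edgeR = 0.532) and ADAM12 one of -0.21 ± 0.08 (adjusted p in edgeR = 0.138). ADAM33, a relative of ADAM12 and ADAM19 known from asthma genetics, had the lowest log2 fold change of the 25, -0.93 ± 0.30, and did not pass (adjusted p in edgeR = 0.0803). Its values of 1.25, 1.596 and 2.30 CPM in LX-2Vector and 1.25, 0.5004 and 0.812 CPM in LX-2FAP overlapped, on 9 to 49 counts per library. ADAM8, an inducible sheddase of leukocytes, had a log2 fold change of -0.13.

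Among the ADAMs without a zinc site, some of which act as neuronal adhesion proteins and ligands, none of 4 tested members was called. ADAM23 had 23.7, 23.6 and 22.7 CPM in LX-2Vector and 22.7, 21.96 and 21.6 CPM in LX-2FAP, just without overlap (-0.08 ± 0.06, adjusted p in edgeR = 0.517). ADAM22, ADAM11 and ADAM32 had log2 fold changes of -0.21, -0.22 and 0.14.

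GC content moved with these differences. It was taken over all annotated transcripts of a gene, so a base present in several transcripts counted more than once. All 9 tested members above 60% GC had log2 fold changes below 0, with a median of -0.44. The median of the other 16 was -0.06. Over all tested genes above 60% GC the median was -0.13, with 81.2% below 0 and 186 called lower against 2 called higher, and it was 0.00 over the genes at or under 60%. Genes above 60% GC deviated from their mean over the libraries by a median of 0.13, 0.01 and 0.03 on the log2 scale in LX-2Vector replicates 1 to 3 and by -0.02, -0.08 and -0.07 in LX-2FAP replicates 1 to 3. The value of 60% was set after the data were seen, and ADAMTS15 at 59.8% falls just outside it.

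**Figure D4:**
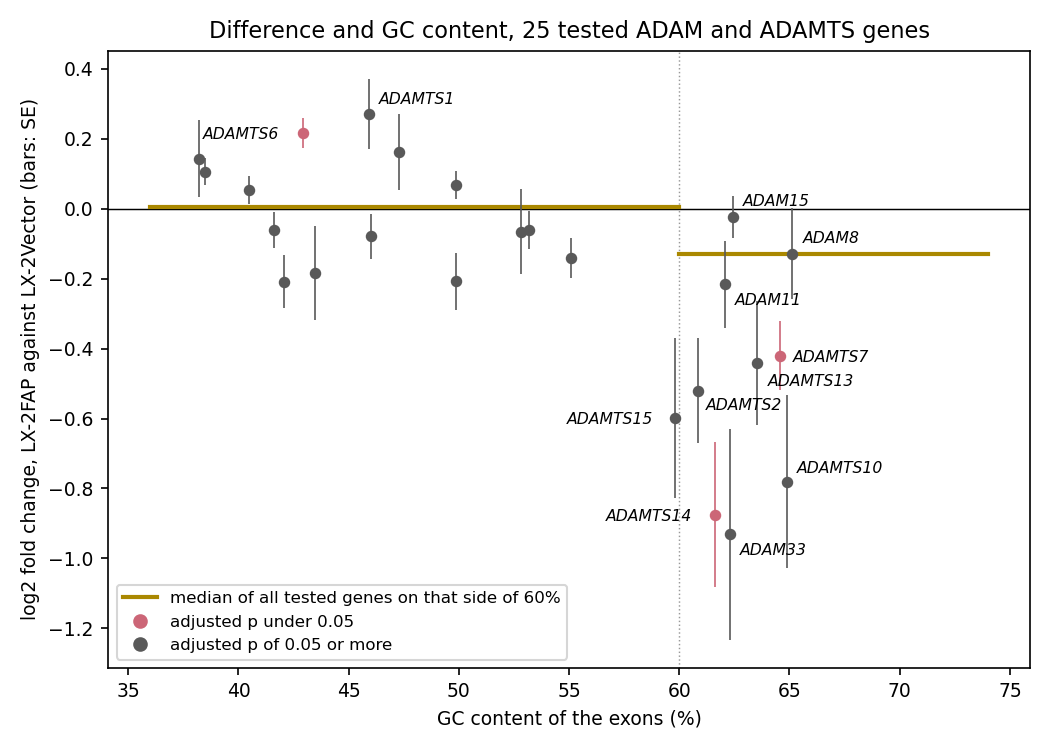
Log2 fold change of LX-2FAP against LX-2Vector (vertical, bars are SE) against GC content in percent (horizontal) for the 25 tested members, with called members in red. The GC content, labelled as that of the exons, was taken over all annotated transcripts of a gene. Gold lines give the median of all tested genes on either side of 60% (0.00 and -0.13), and each of the 9 members to the right of 60% lies below 0.

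With a smooth trend on GC content removed from each library, an alternative chosen after seeing the data, ADAMTS6 was the member still called (difference 0.20, adjusted p in edgeR = 0.0143), with 4.22% of all genes called. ADAMTS14 then had a difference of -0.73 (adjusted p in edgeR = 0.0523) and ADAMTS7 one of -0.25 (adjusted p in edgeR = 0.116). ADAMTS14 and ADAMTS7 hold 61.6% and 64.6% GC and ADAMTS6 42.9%. ADAM15, at 62.4% GC, changed sign from -0.02 to 0.13, and the median over the 25 members moved from -0.13 to -0.07.

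Promoters, from 250 bases before to 50 after the start in RefSeq (GRCh38.p14), were matched for 24 members, 16 of them tested. The EGR1 motif GCGNGGGCG, on either strand, was present in 3 of the 16 (ADAM15, ADAMTS10 and ADAMTS14), and in 9.43% of 35116 promoters. A member was counted if any of its promoters held the motif, whereas the share is per promoter. Another listed promoter of ADAMTS10 held 0 such motifs. The 3 promoters with this GC-rich motif held 79.3% to 79.7% GC, and no share over promoters of like GC was taken. EGR1 was searched because the study concerns a signal through EGR1 to FAP. The AP-1 motif TGANTCA was present in 1 of the 16, ADAMTS12, and in 7.71% of all promoters. The promoter of ADAMTS6 held 52% GC, that of ADAMTS7 74.3% and that of ADAMTS14 79.7%.

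Regulators and substrates of the family were read from 5 lists. These were drawn from general knowledge with earlier results of these data known, so the share called in them is not an independent test. Of 83 genes 72 were tested and 19 were called, 16 lower and 3 higher, or 26.4% of those tested beside 5.29% of all genes. With the GC trend removed, 11 of the 19 were still called, 8 of them lower, and with LX-2FAP replicate 3 left out, 2 of the 19, RHBDF2 and PRNP. Leaving out LX-2FAP replicate 2 ended 12 of the 19 calls, LX-2Vector replicates 1 and 3 ended 8 each, LX-2Vector replicate 2 ended 4 and LX-2FAP replicate 1 ended 0.

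**Figure D5:**
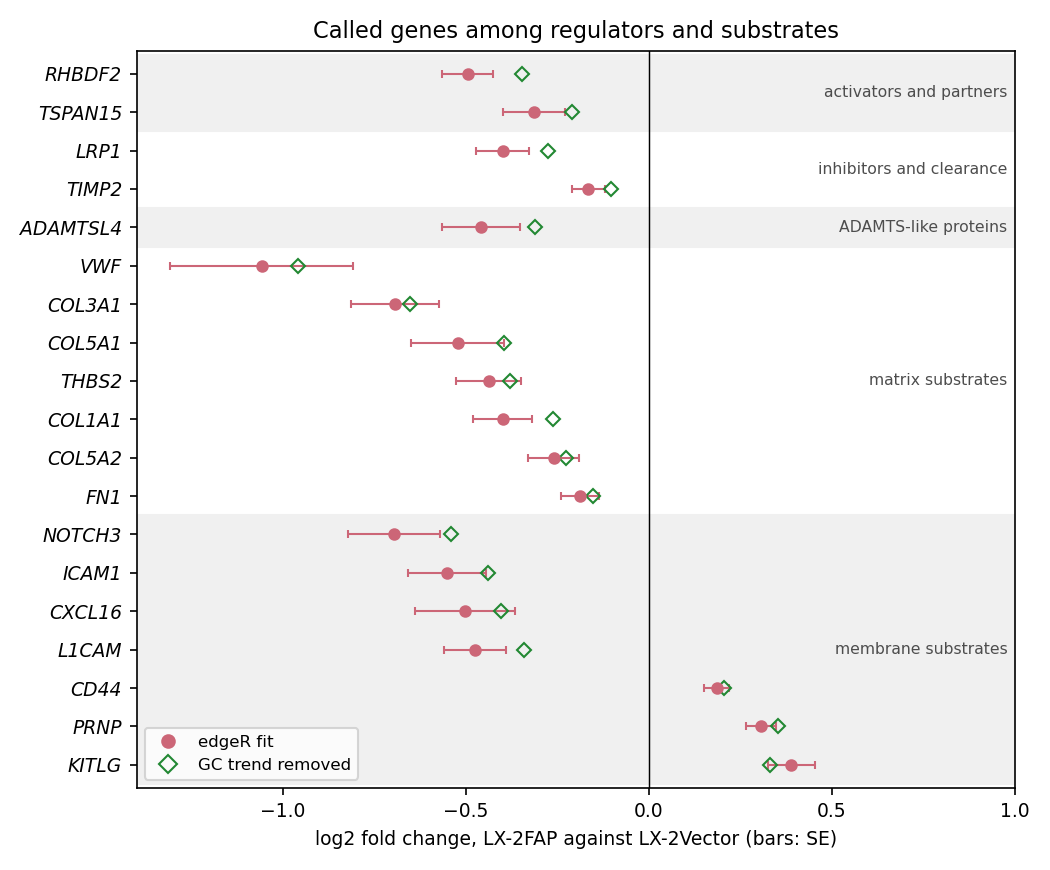
Log2 fold change of LX-2FAP against LX-2Vector (horizontal, bars are SE) for the 19 called genes among regulators and substrates (vertical, by list), with the estimate after removal of the GC trend as open diamonds. CD44, PRNP and KITLG lie above 0, and the other 16 genes lie below it.

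Called genes of each list are given, and others named beside them were picked after their values were seen. Over all genes 2.73% were called lower and 2.57% higher, and the counts of each list stand beside these shares. Of 15 activators and partners, 2 fell. RHBDF2, which encodes iRhom2, a carrier and cofactor of ADAM17, fell from 42.0 ± 3.82 to 29.8 ± 1.32 CPM (SD, n = 3), a difference of -0.50 ± 0.07 (adjusted p in edgeR = 0.00283). Leaving out any 1 of the 6 libraries kept the call, as did removal of the GC trend (-0.35, adjusted p in edgeR = 0.0183). TSPAN15, a tetraspanin that steers ADAM10 to N-cadherin, fell from 13.2 ± 0.334 to 10.6 ± 0.616 CPM (difference -0.31, adjusted p in edgeR = 0.0418), and kept its call in 1 of those 6 fits. With the GC trend removed TSPAN15 was not called (adjusted p in edgeR = 0.142). FURIN, the convertase that removes the prodomain of many members, had a log2 fold change of -0.03, and RHBDF1, the gene of iRhom1, one of -0.16 (adjusted p in edgeR = 0.108).

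Of 7 inhibitors and clearance receptors, 5 were tested and 2 fell. LRP1, the endocytic receptor that clears several ADAMTS proteins, fell from 184.8 ± 15.4 to 140.02 ± 16.7 CPM (SD, n = 3), a difference of -0.40 (adjusted p in edgeR = 0.00823), and lost its call when LX-2FAP replicate 3 was left out. TIMP2 fell from 477.2 ± 19.9 to 425.6 ± 21.6 CPM (difference -0.17, adjusted p in edgeR = 0.0451), and kept its call in 1 of the 6 fits. With the GC trend removed TIMP2 was not called (adjusted p in edgeR = 0.148), and LRP1 was (adjusted p in edgeR = 0.0286). TIMP3, the inhibitor of ADAM17 and of ADAMTS aggrecanases, had a difference of -0.10 (adjusted p in edgeR = 0.417). Among 6 tested ADAMTS-like proteins, which lack a protease domain, ADAMTSL4, a fibrillin-binding protein, fell from 12.97 ± 1.25 to 9.40 ± 1.29 CPM (difference -0.46, adjusted p in edgeR = 0.0246). ADAMTSL4 kept its call in 2 of the 6 fits and was not called with the GC trend removed (adjusted p in edgeR = 0.0885).

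Of 16 tested matrix substrates, 7 fell and 0 rose, beside 2.73% and 2.57% of all genes. These were the fibrillar collagens COL1A1 (log2 fold change -0.40), COL3A1 (-0.69), COL5A1 (-0.52) and COL5A2 (-0.26), which procollagen N-proteinases process, and FN1 (-0.19), THBS2 (-0.44) and VWF (-1.06). COL3A1 fell from 41.7 ± 5.25 to 25.5 ± 5.85 CPM (SD, n = 3; SE of the difference 0.12, adjusted p in edgeR = 0.00765). COL1A1 fell from 306.4 ± 27.8 to 232.1 ± 32.9 CPM (SE of the difference 0.08, adjusted p in edgeR = 0.0135). With the GC trend removed 3 of the 7, COL3A1, THBS2 and VWF, were still called. COL1A1 (difference -0.26), COL5A1, COL5A2 and FN1 were then not called (adjusted p in edgeR = 0.0506, 0.0920, 0.0705 and 0.0949). Of the 6 fits that each left out 1 library, COL3A1 kept its call in 5. COL1A1, COL5A1 and THBS2 kept theirs in 3, and COL5A2, FN1 and VWF in 2. The groups of FN1 overlapped (adjusted p in edgeR = 0.0498). VWF, also listed above as an endothelial marker, rested on 12 to 74 counts per library. COL1A2 was near 0 in both groups, at 0.109 ± 0.0200 and 0.0964 ± 0.0358 FPKM. VCAN, the proteoglycan that ADAMTS1, ADAMTS4 and ADAMTS9 cut, had a difference of -0.07 (adjusted p in edgeR = 0.797).

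Of 30 tested membrane substrates of ADAMs, 4 fell and 3 rose. NOTCH3 fell from 20.5 ± 3.14 to 12.6 ± 2.49 CPM (SD, n = 3), a difference of -0.70 ± 0.13 (adjusted p in edgeR = 0.00823). The adhesion genes ICAM1 and L1CAM and the chemokine gene CXCL16 fell by 0.55, 0.48 and 0.50 on the log2 scale. CXCL16 kept its call in 1 of the 6 fits that each left out 1 library. NOTCH3 and L1CAM lost theirs when LX-2FAP replicate 3 was left out, and ICAM1 when LX-2FAP replicate 2 or 3 was. With the GC trend removed CXCL16 was not called (adjusted p in edgeR = 0.0939), and NOTCH3, ICAM1 and L1CAM were. PRNP, the gene of the prion protein, rose from 894.3 ± 28.3 to 1106.4 ± 54.2 CPM (0.31 ± 0.04, adjusted p in edgeR = 0.00283) and kept its call whichever library was left out. KITLG, the gene of stem cell factor, rose from 54.03 ± 1.53 to 70.9 ± 7.30 CPM (difference 0.39, adjusted p in edgeR = 0.00765). CD44, a hyaluronan receptor, rose from 1119.6 ± 18.8 to 1272.7 ± 8.88 CPM (difference 0.18, adjusted p in edgeR = 0.00957). KITLG lost its call when LX-2FAP replicate 3 was left out, and CD44 when LX-2FAP replicate 2 or 3 was. NOTCH2, the highest Notch receptor, had a difference of -0.07 (adjusted p in edgeR = 0.345).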

How the data were processed

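RNA was extracted from 6 LX-2 samples. Per the labels ribosomal RNA was depleted, whereas the methods of the study also name poly(A) isolation. Per the submitters' processing notes the authors aligned reads with HISAT2 2.0.5 and counted them with featureCounts 1.5.0-p3, and the notes list the build hg18. The authors deposited whole-number counts per gene, not normalized, and FPKM values that they computed from counts and gene length. Coordinates and GC content were taken from GENCODE release 29 (GRCh38) by Ensembl gene ID and were not converted between builds.

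edgeR 4.0.16 tested the counts by quasi-likelihood (TMM normalization, filterByExpr with a minimum count of 10 and a minimum total of 15, no covariate), with 2-sided p-values adjusted by Benjamini-Hochberg over 18275 genes. SEs were derived from the test statistic. CPM are TMM-normalized. Members and lists were chosen with earlier results of these data known. Values per library were given for members that were called, did not overlap between groups at a mean count of at least 10, were among the 8 highest by FPKM in LX-2Vector, or were highest in their role list. On simulated counts for 17969 genes the test found 53.7% of the 1.2-fold changes, 92.5% of the 1.5-fold changes and 95.5% of the 2-fold changes, with 4.73% of calls being false. The simulated spread followed the trend over expression level alone, without a GC trend or an outlying library. Genes with the lowest counts were not changed in it, so these rates need not hold for the real libraries. Chi-square per degree of freedom between replicates was 2.05 to 4.88, so no pair was a repeat within counting noise. The labels give no batch.

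Alternatives were each library left out, the replicate number as a block, limma 3.58.1 (limma-trend) on log2 of FPKM with a pseudocount of 1 or 0.1, DESeq2 1.42.0, its size factors, library size alone, and either no filter or at least 10 counts in every library. Removal of trends on GC content (known for 98.1% of tested genes) and on length (loess, span 0.5) was added after seeing the data.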

Additional observations from a re-analysis of the deposited data

How the results depend on the processing

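With no filter on low counts, 1606 genes and 7 members were called, 2 higher and 5 lower. Limma-trend called 2 genes with either pseudocount, and 0 members, 0 higher and 0 lower, and 0 regulator or substrate genes. At an unadjusted p under 0.05 limma-trend gave 9 members, and with a pseudocount of 1, 0 members met the cutoff of 1.2-fold with an unadjusted p. The DESeq2 Wald test called 1 member lower, with 5 members at that cutoff and no adjusted p given for 7 members, ADAMTS14 among them. With the GC trend removed 1 member was called, 0 lower, and 5 met that cutoff. With the length trend removed 1749 genes and 5 members were called, 2 higher. At an adjusted p under 0.1 and 0.01, 6 and 0 members were called, and with an adjusted p 2 members met that cutoff. For counts at these thresholds, at that cutoff or at an unadjusted p, here and below, no share over all genes was taken.

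Over the 6 fits that each left out 1 library, genes called ran from 26 to 1949, members called from 0 to 8, members higher from 0 to 2, members lower from 0 to 6, members at that cutoff from 5 to 11, and regulators and substrates called from 2 to 24. No member was called without LX-2FAP replicate 2 or 3, where 7 and 10 members had an unadjusted p under 0.05, and 8 were called without LX-2FAP replicate 1. The cause was not tested. The median log2 fold change of members was -0.16 with library size alone, -0.10 with at least 10 counts in every library, -0.084 with limma-trend and a pseudocount of 1, -0.068 with the GC trend removed, -0.086 with the length trend removed, and -0.15 to -0.091 over the 6 fits.

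ADAM15 changed sign, to 0.058 without LX-2Vector replicate 1, 0.03 without LX-2FAP replicate 1 (range over the 6 fits -0.06 to 0.058), 0.13 with the GC trend removed and 0.016 with the length trend removed, and ADAMTS16 did so with the GC trend removed (0.01). ADAMTS4 turned to 0.026 when LX-2Vector replicate 3 was left out and to 0.012 when LX-2FAP replicate 3 was. Removal of the GC trend turned ADAMTS4 to 0.00026 and ADAM8 to 0.046. No other tested member changed sign in the 16 alternatives. Of 26 members at 0.1 FPKM or more in LX-2Vector, 14 reached 1 FPKM. Replicate numbers did not pair the libraries (correlation of same-numbered deviations -0.04, 0.04 and -0.01). With the replicate number as a block 3 members were called, 1 higher and 2 lower, the same genes as without it. Depth allowed no comparison of the 16 members under the filter, with at most 11 counts per library.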

Other observations

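Further rows of the table carry the ADAM stem with another ending. ADAM20P1 and ADAM1B, annotated copies, had 6 to 15 and 11 to 23 counts per library, with log2 fold changes of -0.09 (adjusted p in edgeR = 0.922) and -0.33 (adjusted p in edgeR = 0.562). ADAMTS9-AS2, an antisense RNA of ADAMTS9, was counted 47, 29 and 80 times in LX-2Vector and 61, 20 and 26 times in LX-2FAP, a difference of -0.51 on the log2 scale (adjusted p in edgeR = 0.390), against 0.16 for ADAMTS9. ADAM1A, ADAM3A, ADAMDEC1 and ADAMTSL2 were at 0 in every library.

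Within the procollagen N-proteinases, the ratio of ADAMTS14 to ADAMTS3 in FPKM was 0.542, 0.460 and 0.574 in LX-2Vector and 0.508, 0.238 and 0.256 in LX-2FAP replicates 1 to 3 (2-sided exact permutation p = 0.2). The ratio of ADAM17 to ADAM10 was 0.387, 0.386 and 0.383 in LX-2Vector and 0.345, 0.376 and 0.348 in LX-2FAP, without overlap (2-sided exact permutation p = 0.1, the smallest that 3 against 3 can give). These were 2 of 4 ratios computed, all chosen after the levels were seen, and all 4 had p = 0.2 in the permutation test after Benjamini-Hochberg adjustment.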
